A study of Rattus norvegicus with 99 samples.

Results

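The failing right ventricle (RV) under pulmonary artery banding (PAB) was set against the failing left ventricle (LV) under aortic banding (AOB), to ask which genes and pathways both ventricles shared and which differed between them. The comparison used 12 of the 99 libraries of the series, namely the loaded ventricle of every animal with heart failure and the same ventricle of its own sham group. The 12 libraries came from 12 of the 33 animals studied, so no animal stood on both sides. All were male F1 rats, bred from female Wistar Kyoto and male Lewis rats, and were operated on at an age of 6 weeks by the labels. A clip that did not constrict the vessel when placed, and came to constrict it as the rat grew, was put around the pulmonary artery or the aorta, with sham-operated rats as controls.

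The 4 groups were PAB-F RV (RV of banded animals in failure, n = 3) and Sham-RF RV (n = 2), both at 27 weeks of age and 21 weeks after surgery, and AOB-F LV (LV of banded animals in failure, n = 4) and Sham-LF LV (n = 3), both at 30 weeks of age and 24 weeks after surgery. The vessel banded, the ventricle, the age and the time under load therefore moved together, and their parts in a difference between the responses cannot be told apart. Each library held poly(A) RNA of whole ventricular tissue, with every cell type of the wall. The counts assigned to genes ranged from 12562697 to 18028805 per library. Of 17337 genes in the table, 11924 had enough counts to be tested.

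A ventricle pumping against raised pressure enlarges its cardiomyocytes and turns on genes of the foetal heart, among them natriuretic peptides and foetal isoforms of contractile proteins. Fibroblasts lay down collagen and matricellular proteins, partly under TGF-beta, and the adult programme of fatty acid oxidation is often turned down. The RV and LV arise from different progenitors and work against different pressures, which is why their responses to load are studied side by side.

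The libraries matched their labelled chamber. A score built from 50 genes that separated RV from LV in 18 other animals read 0.576 to 1.317 in the 5 RV libraries and -0.293 to 0.333 in the 7 LV libraries. Summed cardiomyocyte markers were lower in banded than in sham hearts in both ventricles, at 81370 to 95270 against 97240 to 99920 CPM (gene counts scaled to the size of the library) in RV and at 64570 to 81120 against 82210 to 100800 CPM in LV. Here, as in every result below, fewer cells of a type and less RNA per cell cannot be told apart. PAB-F RV replicate 3 and AOB-F LV replicate 4 had the highest summed atrial markers, 2237 and 811 CPM against 189 to 315 CPM elsewhere. Of the 10 markers, 4 had a negative log2 fold change in RV and 2 in LV. Myl4, a myosin light chain of the atrium and of the foetal ventricle, was at 427 and 189 CPM there, against 3.15 to 12.4 CPM in the other 10 libraries. Myl4 was also among the genes that the study had listed for isolated cardiomyocytes of the failing RV. Below, these 2 are called the libraries with atrial RNA, a name for their marker sums only. Whether they held atrial tissue was not tested. Sham-RF RV replicate 2 and AOB-F LV replicate 2 had the highest summed adipocyte markers, 38.3 and 40.3 CPM against 12.1 to 31.5 CPM elsewhere. No pair of replicates was alike within sampling noise.

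By edgeR's quasi-likelihood test, with Benjamini-Hochberg adjustment over all 11924 genes and a threshold of 0.05, 8 genes changed in the failing RV (0.0671% of the genes tested), of which 1 rose (0.00839%) and 7 fell (0.0587%), and 143 changed in the failing LV (1.20%), of which 102 rose (0.855%) and 41 fell (0.344%). For the difference between the responses, taken throughout as the log2 fold change in RV minus that in LV, 0 genes (0%) passed, with a lowest adjusted p of 0.522, and DESeq2 called 0 as well. At an unadjusted p under 0.05, edgeR gave 1353 genes in RV (11.3%), 1552 in LV (13.0%) and 668 for the difference (5.60%), and DESeq2 gave 675 for the difference. No gene is therefore shown here to respond in one ventricle and not in the other. The typical precision sets how far that statement goes. The 95% confidence interval (CI) of a gene's difference reached 1.49-fold to either side in the median gene, against 1.36-fold for the RV change and 1.29-fold for the LV change.

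The counts of DEGs depended on single libraries. Without AOB-F LV replicate 1, AOB-F LV replicate 4 or any of the 3 Sham-LF LV libraries, 0 genes were called in LV, and without AOB-F LV replicate 2 or 3 the number was 309 or 634. In RV, 0 genes were called without PAB-F RV replicate 2 or Sham-RF RV replicate 1, 78 without PAB-F RV replicate 1, 2 without Sham-RF RV replicate 2 and 1 without PAB-F RV replicate 3. Fitted without the other 87 libraries, the 12 libraries gave 0 calls in either ventricle. The animals of a group were far apart, with PAB-F RV replicate 1 and AOB-F LV replicates 2 and 3 nearer to sham for many of the genes below.

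Genes picked in one ventricle mostly had the same direction in the other. Of the 102 genes that rose in LV, 94 had a positive log2 fold change in RV (92.2%, against 51.1% of all genes tested), with a median of 0.71. In 37 of the 102 (36.3%) every PAB-F RV library lay above every Sham-RF RV library, against 16.8% of all genes. Of the 41 genes that fell in LV, 38 had a negative log2 fold change in RV, and in 21 (51.2%, against 18.3% of all genes) all PAB-F RV libraries lay below the sham. Read from the other side, 243 of the 273 genes with a positive RV change at an unadjusted p under 0.01 were also positive in LV (89.0%, against 53.0% of all genes), with a median of 0.22. The 199 genes with a negative RV change at that level were less one-sided in LV, with 137 negative and 62 positive and a median of -0.10.

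Over all 11924 genes the log2 fold changes of the ventricles correlated with a Pearson r of 0.377 and a Spearman rho of 0.294, and 59.7% had the same sign. Genes are not independent replicates, and each axis rests on its own few animals. Of 298 genes at an unadjusted p under 0.05 in both ventricles, 177 were higher and 110 lower in both, and 11 had opposite signs. Banded and sham libraries did not overlap in either ventricle for 213 genes that were higher in both (1.79%) and 231 that were lower in both (1.94%). By the same measure 27 genes (0.226%) were higher in RV and lower in LV, and 54 (0.453%) were lower in RV and higher in LV.

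**Figure D1:**
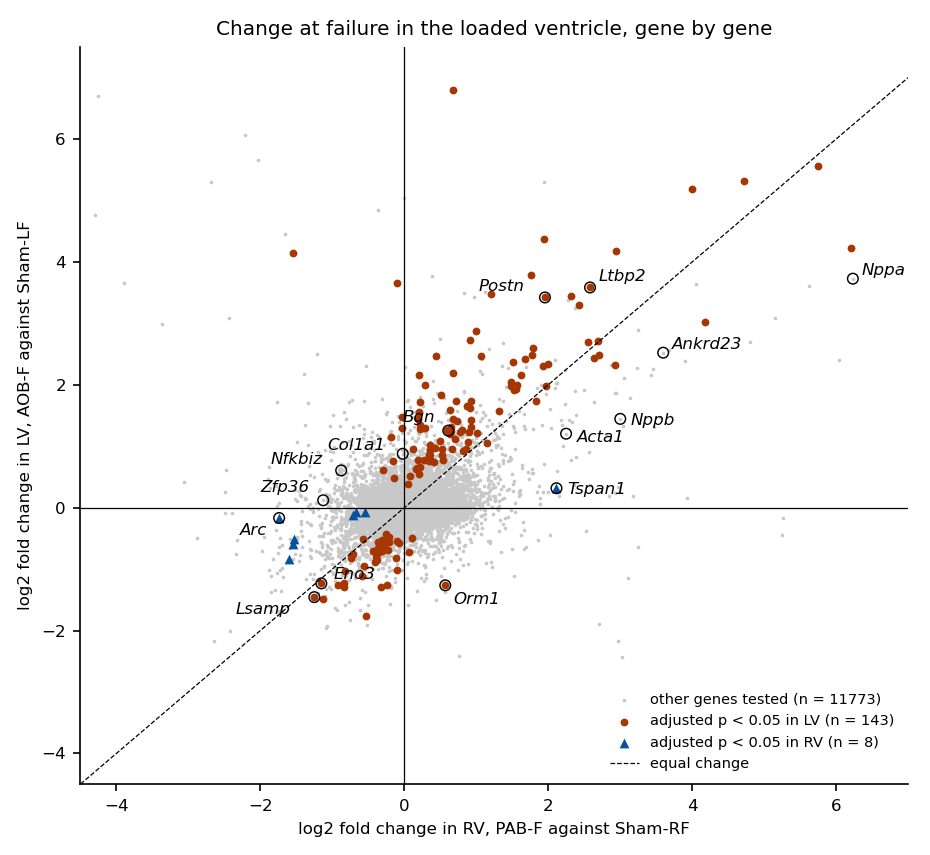
Each point is 1 gene, with its log2 fold change in the failing LV (AOB-F against Sham-LF) and in the failing RV (PAB-F against Sham-RF) on the axes. The 143 genes called in LV are red circles, the 8 called in RV blue triangles and the other 11773 genes grey. The dashed line marks equal change and open rings mark labelled genes, and 2 genes lie outside the axes. The genes called up in LV lie mostly in the quadrant that is positive in both ventricles.

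Most of the listed load-response genes of the cardiomyocyte were higher in both failing ventricles. The list of 12 natriuretic and foetal contractile genes is broader than its name. It also holds the adult myosin Myh6 and the intercalated disc protein Xirp2. In each ventricle 8 of the 12 had a positive log2 fold change and 4 a negative one. Of the 12 natriuretic and foetal contractile genes, 6 were higher in every banded than in every sham library in both ventricles (Nppa, Nppb, Acta1, Myh7, Mybpc2 and Xirp2), and Myh6 was lower in both. Of all genes tested, 1.79% were higher in both by this measure and 1.94% lower in both. The median log2 fold change of the 12 was 1.43 in RV and 0.93 in LV, against 0.01 and 0.02 over all genes tested. Xirp2 and Mybpc2 rose in LV (0.855% of all genes rose). None of the 12 passed the adjusted threshold in RV, where 0.0671% of all genes did. At an unadjusted p under 0.05, 7 were higher in RV (5.97% of all genes) and 5 in LV (7.15% of all genes).

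Nppa, which encodes atrial natriuretic peptide, was at 51.4 and 48.8 CPM in Sham-RF RV and at 288, 5715 and 5308 CPM in PAB-F RV replicates 1 to 3. In LV it was at 818, 813 and 603 CPM in Sham-LF and at 17453, 3715, 2180 and 16127 CPM in AOB-F replicates 1 to 4. All banded libraries lay above their sham in both ventricles, and the sham LV lay above the sham RV. The log2 fold change was 6.23 ± 1.77 (SE) in RV (adjusted p = 0.142) and 3.73 ± 1.27 in LV (adjusted p = 0.123). Their difference was 2.51, with a 95% CI of -1.002 to 6.01. Myl4 was at 10.3 CPM in PAB-F RV replicate 2, and replicate 3 belongs to the libraries with atrial RNA. The part of atrial tissue in the Nppa values was not tested.

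Nppb, the gene of B-type natriuretic peptide, followed the same order of libraries. It was at 89.9 and 47.1 CPM in Sham-RF RV, 174, 877 and 594 CPM in PAB-F RV, 277, 366 and 374 CPM in Sham-LF LV and 1338, 651, 504 and 1201 CPM in AOB-F LV. Acta1, skeletal alpha-actin, was at 715 and 664 CPM in Sham-RF RV and 1682, 4532 and 3609 CPM in PAB-F RV, and ranged from 1255 to 1560 CPM in Sham-LF LV and from 1744 to 5072 CPM in AOB-F LV. Neither gene overlapped between banded and sham hearts. Their differences between ventricles were 1.56 (95% CI -0.32 to 3.43) and 1.04 (95% CI -0.62 to 2.71) on the log2 scale.

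The myosin heavy chains had more of the slow foetal isoform and less of the fast adult one in both failing ventricles, and neither gene passed the threshold. Myh7, the slow isoform, ranged from 4326 to 4682 CPM in Sham-RF RV and from 5899 to 13071 CPM in PAB-F RV, and from 5814 to 7452 CPM in Sham-LF LV and from 8706 to 11503 CPM in AOB-F LV. Myh6, the fast adult isoform, ranged from 18133 to 18779 CPM and from 7993 to 16553 CPM in the RV groups. In LV it ranged from 12616 to 14288 CPM in sham and from 2309 to 10482 CPM in AOB-F, with the lowest values in replicates 1 and 4. The log2 fold changes of Myh6 were -0.61 ± 0.36 in RV and -1.02 ± 0.31 in LV (adjusted p = 0.530 and 0.0676).

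Proteins that sense stretch at the Z-disc and sarcomere formed the other shared group. Of the 13 tested, 5 were higher in every banded library of both ventricles (Ankrd1, Ankrd23, Xirp2, Nrap and Flnc) and Ldb3 was lower in both. Over all genes these shares were 1.79% and 1.94%. In LV 3 of the 13 (23.1%, against 5.90% of all genes) were lower in every AOB-F library. Xirp2 belongs to this list and to the natriuretic and foetal one. The median log2 fold change was 0.66 in RV and 0.38 in LV. Ankrd23, a titin-binding ankyrin repeat protein, was at 36.3 and 24.8 CPM in Sham-RF RV and 95.3, 664 and 349 CPM in PAB-F RV, and at 118, 101 and 77.9 CPM in Sham-LF LV and 916, 387, 196 and 774 CPM in AOB-F LV. Xirp2, an actin-binding protein of the intercalated disc, was at 425 and 428 CPM in Sham-RF RV and 527, 2646 and 1370 CPM in PAB-F RV, and at 644, 484 and 581 CPM in Sham-LF LV and 2819, 1134, 706 and 2961 CPM in AOB-F LV. Xirp2 rose in LV (log2 fold change 1.74 ± 0.45, adjusted p = 0.0315) and had a log2 fold change of 1.83 ± 0.54 in RV (adjusted p = 0.154), so that the difference was 0.09 (95% CI -1.23 to 1.40).

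**Figure D2:**
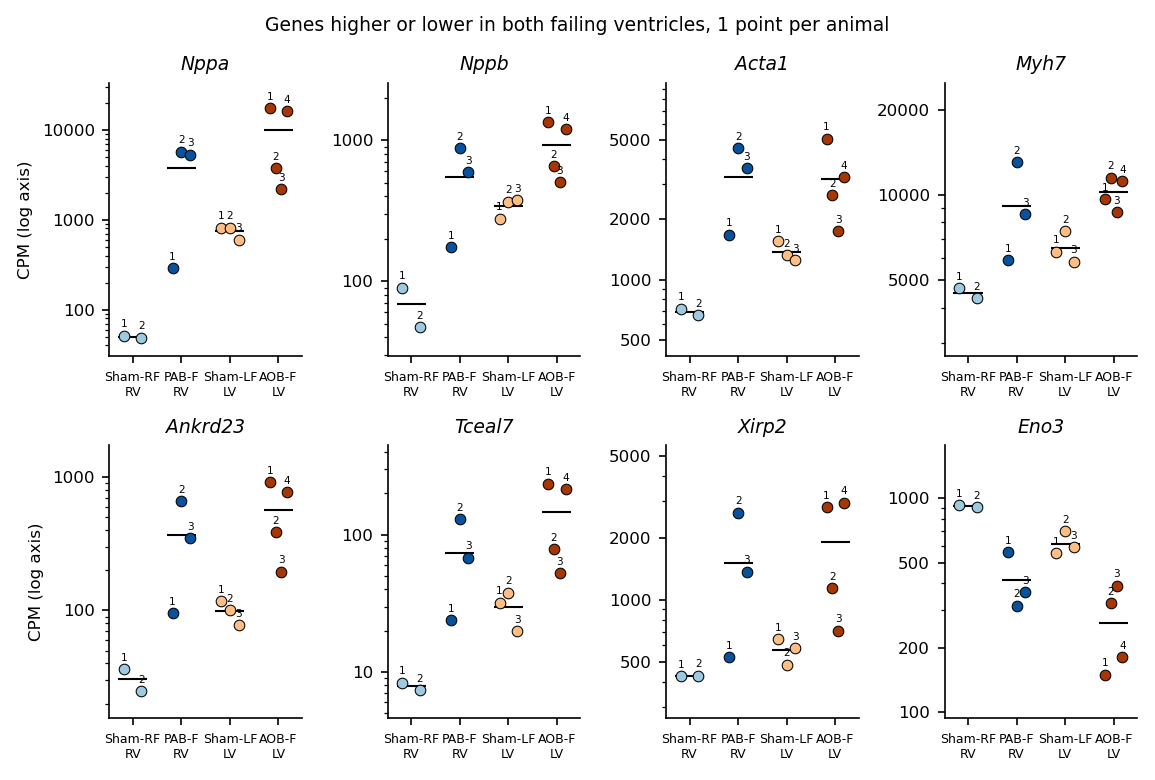
CPM on a log axis of 8 genes in the 4 groups, with a circle and replicate number for each animal and a line at the group mean. In each panel the banded libraries lie on 1 side of their sham in both ventricles, and PAB-F RV replicate 1 lies nearest to its sham.

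Other genes with the largest shared change, chosen by the smaller of the 2 changes among genes without overlap, included some at low level. Epn3, Pof1b, Phyhipl and Phgr1, at most 11.2 CPM in any of the 12 libraries, were among them. Of these, Phyhipl and Phgr1 rose in LV (log2 fold changes 3.02 ± 0.81 and 2.71 ± 0.73, adjusted p = 0.0395 and 0.0392), and with at most 3 counts in each Sham-RF RV library no RV fold is given. Epn3, an epsin, had log2 fold changes of 2.87 in RV and 2.33 in LV, and Pof1b of 2.24 and 2.25, none past the threshold. Tceal7, a transcription elongation factor-like gene, was at 8.38 and 7.36 CPM in Sham-RF RV and 23.8, 130 and 68.1 CPM in PAB-F RV, and at 32.1, 37.9 and 19.9 CPM in Sham-LF LV and 236, 78.6, 52.5 and 216 CPM in AOB-F LV. Akip1, which binds protein kinase A and was chosen after its values were seen, was at 23.7 and 19.3 CPM in Sham-RF RV, 30.3, 164 and 82.8 CPM in PAB-F RV, 28.2 to 35.2 CPM in Sham-LF LV and 47.3 to 211 CPM in AOB-F LV. Ncam1, the neural cell adhesion molecule, rose in LV (log2 fold change 2.69 ± 0.70, adjusted p = 0.0357) and had a log2 fold change of 2.56 ± 0.86 in RV (adjusted p = 0.196). Its libraries again ran from near sham in PAB-F RV replicate 1 and AOB-F LV replicate 3 (6.15 and 7.55 CPM) to 48.7 CPM in PAB-F RV replicate 2 and 71.7 CPM in AOB-F LV replicate 1. Hs3st2, a heparan sulphate sulphotransferase, rose in LV from 0.0692 to 0.295 CPM in sham to 19.2, 3.66, 1.30 and 9.15 CPM in AOB-F (adjusted p = 0.019). In RV it was at 0.28, 5.91 and 3.63 CPM in PAB-F, while each Sham-RF RV library held at most 3 counts, so that no fold is given. Dupd1, a dual specificity phosphatase, rose in LV by 2.44 ± 0.57 (adjusted p = 0.019) and had a log2 fold change of 2.64 ± 0.76 in RV (adjusted p = 0.142).

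Penk, the preproenkephalin gene, was higher in all PAB-F RV libraries (95.6, 134 and 121 CPM) than in Sham-RF RV (55.5 and 44.6 CPM). In LV the groups overlapped, at 112 to 194 CPM in sham and 149 to 244 CPM in AOB-F. The difference between ventricles was 0.84 (95% CI -0.76 to 2.43).

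Among the genes lower in both ventricles, Eno3, the muscle enolase of glycolysis, was at 930 and 905.2 CPM in Sham-RF RV and 560, 314 and 364 CPM in PAB-F RV, and at 552, 701 and 589 CPM in Sham-LF LV and 150, 324, 390 and 181 CPM in AOB-F LV. It fell in LV (log2 fold change -1.23 ± 0.28, adjusted p = 0.019), and in RV its log2 fold change was -1.15 ± 0.33 (adjusted p = 0.142). The difference of 0.08 had a 95% CI of -0.79 to 0.95. Lsamp, a cell adhesion molecule, fell in LV by 1.46 ± 0.39 on the log2 scale (adjusted p = 0.0376) and was at 21.5, 7.51 and 11.2 CPM in PAB-F RV against 31.6 and 32.0 CPM in Sham-RF RV. Crybb1, a beta-crystallin, had log2 fold changes of -1.26 in RV and -1.17 in LV, and Kcnn2, a calcium-activated potassium channel, of -1.86 and -1.11, none past the threshold. Rab1b met the rule through low banded values (1.51 to 3.09 CPM in the 7 banded libraries), while its sham libraries ran from 2.69 to 12.4 CPM.

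Promoters of genes that were higher together are shown for reading beside these values. They run from 250 bases before to 50 bases after the transcription start in RefSeq's GRCr8 assembly, 5′ to 3′ on the gene's strand, with motif letters in capitals. The motifs searched, on both strands, were M-CAT (GGAATG), the element of TEAD factors, and the CArG box of serum response factor, with AP-1 (TGANTCA) and CRE (TGACGTCA) beside them. Of 33469 rat promoters, 14.2% held M-CAT, 1.64% CArG, 7.33% AP-1 and 1.83% CRE. Of 7 promoters found for genes higher in both ventricles (Nppa, Nppb, Acta1, Ankrd23, Tceal7, Hs3st2 and Akip1), 4 held M-CAT, 1 CArG, 1 CRE and 0 AP-1. These 7 are a part of the 213 genes higher in both without overlap, and Akip1 was chosen after its values were seen. Their counts do not describe the other genes. Of 21 promoters of immediate early genes, described further on, 4 held CArG, 5 CRE, 1 M-CAT and 0 AP-1. The windows shown are Nppb (chr5:163699758-163700057, plus strand, M-CAT), Acta1 (chr19:68784145-68784444, minus strand, CArG and M-CAT), Ankrd23 (chr9:46274461-46274760, minus strand, M-CAT) and Zfp36 (chr1:92799059-92799358, minus strand, CArG), the immediate early gene with the lowest p for the difference. A match is a description of the letters, not of a site in use.
Nppb: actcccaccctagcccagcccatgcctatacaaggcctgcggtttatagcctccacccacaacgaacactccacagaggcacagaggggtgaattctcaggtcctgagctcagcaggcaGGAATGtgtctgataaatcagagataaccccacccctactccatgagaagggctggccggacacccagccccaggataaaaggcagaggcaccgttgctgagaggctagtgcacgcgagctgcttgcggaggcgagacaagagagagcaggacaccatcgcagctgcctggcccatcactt
Acta1: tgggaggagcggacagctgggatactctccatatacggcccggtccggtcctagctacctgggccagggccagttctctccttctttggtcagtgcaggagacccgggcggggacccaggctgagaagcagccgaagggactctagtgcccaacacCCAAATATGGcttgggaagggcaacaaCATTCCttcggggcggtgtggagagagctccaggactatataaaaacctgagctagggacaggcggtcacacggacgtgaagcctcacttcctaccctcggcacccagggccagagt
Ankrd23: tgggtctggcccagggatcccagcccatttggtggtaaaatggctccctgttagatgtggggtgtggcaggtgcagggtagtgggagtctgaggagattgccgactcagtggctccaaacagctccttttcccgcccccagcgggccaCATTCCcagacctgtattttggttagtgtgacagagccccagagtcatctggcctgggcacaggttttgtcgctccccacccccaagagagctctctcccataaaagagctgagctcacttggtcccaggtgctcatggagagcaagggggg
Zfp36: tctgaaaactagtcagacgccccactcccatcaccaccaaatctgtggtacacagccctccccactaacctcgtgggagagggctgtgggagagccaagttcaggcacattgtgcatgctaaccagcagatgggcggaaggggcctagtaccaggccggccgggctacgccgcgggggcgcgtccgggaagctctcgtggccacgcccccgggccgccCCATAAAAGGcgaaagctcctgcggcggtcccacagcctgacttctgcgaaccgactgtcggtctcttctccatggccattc

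Matrix genes were higher in the failing LV, and the same genes were on average closer to sham in the failing RV. Of the 27 matricellular and matrix genes tested, 7 rose in LV (0.855% of all genes rose): Postn, Ctgf, Wisp2, Cilp, Vcan, Bgn and Crtac1. None was called in RV (0.0671% of all genes). In LV 13 of the 27 (48.1%) were higher in every AOB-F library than in every sham library, against 5.90% of all genes, and the median log2 fold change was 0.70. In RV only Cilp was so (3.7%, against 16.8% of all genes), 3 were lower (11.1%, against 18.3%), and the median was 0.18. At an unadjusted p under 0.05 by edgeR, 8 of the 27 were higher in RV (5.97% of all genes) and 2 lower (5.38%). In LV 18 were higher at that level (7.15% of all genes) and 0 lower (5.87%). The difference was negative for 23 of the 27 and positive for 4 (50.3% of all genes were positive), with a median of -0.54. At an unadjusted p under 0.05, 5 were more positive in LV (3.36% of all genes) and 0 more positive in RV, while none passed the adjusted threshold.

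PAB-F RV replicate 1 set much of the RV value. The mean log2 CPM of the 27 genes, relative to sham, was -0.294 in that library and 1.03 and 0.737 in replicates 2 and 3, against 1.496, 0.656, 0.379 and 1.73 in the 4 AOB-F LV libraries. Leaving out each library in turn kept the median difference negative, between -0.79 without PAB-F RV replicate 2 and -0.41 without PAB-F RV replicate 1, while the RV median ran from 0.07 without PAB-F RV replicate 2 to 0.33 without replicate 1. Summed fibroblast markers, a list that shares Col1a1 and Pi16 with matrix genes, were at 1789 to 2787 CPM in PAB-F RV against 2369 to 2419 CPM in Sham-RF RV, and at 2863 to 3707 CPM in AOB-F LV against 2464 to 2661 CPM in Sham-LF LV. The part of fibroblast number in these values was not tested.

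Postn, periostin of activated fibroblasts, was at 13.2 and 10.9 CPM in Sham-RF RV and 7.06, 98.6 and 34.4 CPM in PAB-F RV, and at 7.95, 6.72 and 10.0 CPM in Sham-LF LV and 162, 28.9, 11.7 and 152 CPM in AOB-F LV. The RV groups overlapped and the LV groups did not. Postn rose in LV (log2 fold change 3.42 ± 0.84, adjusted p = 0.0251), its RV value was 1.95 ± 0.95 (adjusted p = 0.423), and the difference was -1.47 (95% CI -3.80 to 0.86). Ctgf, connective tissue growth factor, rose in LV from 97.3 to 107 CPM in sham to 882, 260, 141 and 830 CPM in AOB-F (adjusted p = 0.016), and was at 115, 544 and 354 CPM in PAB-F RV against 123 and 114 CPM in Sham-RF RV. Bgn, the proteoglycan biglycan, had the lowest adjusted p of the group, 0.0108, for a rise of 1.25 ± 0.25 in LV, with 0.61 ± 0.30 in RV. For these genes PAB-F RV replicates 2 and 3 lay above the sham and replicate 1 within or below the sham range.

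Vcan, Fn1 and Thbs3 had RV log2 fold changes nearer to 0. Vcan, the proteoglycan versican, was at 38.9 and 35.1 CPM in Sham-RF RV and 29.1, 51.0 and 40.0 CPM in PAB-F RV, and at 33.6, 25.7 and 33.4 CPM in Sham-LF LV and 77.4, 39.5, 36.1 and 88.1 CPM in AOB-F LV. Vcan rose in LV (log2 fold change 0.96 ± 0.26, adjusted p = 0.0371), with 0.12 ± 0.30 in RV and a difference of -0.85 (95% CI -1.62 to -0.08, unadjusted p = 0.0319). Fn1, fibronectin, was at 144 and 145 CPM in Sham-RF RV and 124, 157 and 143 CPM in PAB-F RV, and at 90.3 to 112 CPM in Sham-LF LV and 99.9 to 262 CPM in AOB-F LV. The difference for Fn1 was -0.73 (95% CI -1.39 to -0.07). Thbs3, a thrombospondin, had log2 fold changes of -0.18 in RV and 0.61 in LV and a difference of -0.78 (95% CI -1.35 to -0.22). Thbs2 and the fibulin gene Fbln1 were the other members past an unadjusted 0.05 for the difference, at -0.48 and -0.59. Thbs4 and Spp1, the gene of osteopontin, had the larger values in RV, with log2 fold changes of 4.06 and 3.68 in RV and 3.65 and 2.56 in LV, none past the threshold.

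The fibrillar collagens showed the same order. All 8 tested had a more positive change in LV, with medians of -0.05 in RV and 0.38 in LV and a median difference of -0.52. At an unadjusted p under 0.05 for the difference, 3 of the 8 (Col1a1, Col5a2 and Col5a3) were more positive in LV (3.36% of all genes). None was called in either ventricle. Col1a1, the main chain of type I collagen, was at 205 and 180 CPM in Sham-RF RV and 145, 236 and 189 CPM in PAB-F RV, and at 127, 145 and 168 CPM in Sham-LF LV and 335, 211, 173 and 360 CPM in AOB-F LV. Banded and sham overlapped in RV and not in LV. Its log2 fold change was -0.02 ± 0.29 in RV and 0.88 ± 0.25 in LV (adjusted p = 0.985 and 0.0504), and the difference was -0.90 (95% CI -1.65 to -0.15, unadjusted p = 0.019, adjusted p = 0.819). Col3a1 had a difference of -0.56 (95% CI -1.21 to 0.10). The median difference of the list stayed between -0.64 and -0.39 over all alternatives run, but the LV median was 0.10 without AOB-F LV replicate 4. The mean log2 CPM of the 8 genes relative to sham was 0.0752, -0.0474 and -0.0049 in AOB-F LV replicates 1 to 3 and 0.703 in replicate 4, the library with atrial and mesothelial RNA, whose part was not tested.

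Enzymes that crosslink and process collagen gave 2 calls among 19, both up in LV (0.855% of all genes rose there). They were Loxl1, a lysyl oxidase (1.42 ± 0.39, adjusted p = 0.0449), and the transglutaminase Tgm2 (0.77, adjusted p = 0.0397). Their RV values were 0.93 and 0.54. Among 14 network collagens Col14a1 rose in LV (0.98, adjusted p = 0.019), with 0.42 in RV. Timp1, an inhibitor of metalloproteinases, was at 16.9 and 18.5 CPM in Sham-RF RV, 13.0, 40.9 and 23.1 CPM in PAB-F RV, 14.7 to 18.002 CPM in Sham-LF LV and 15.2 to 47.2 CPM in AOB-F LV, and overlapped with sham in both ventricles.

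TGF-beta and BMP genes included both shared and differing members. Of the 33 tested, 5 rose in LV (Tgfb2, Ltbp2, Ltbp3, Inhbb and Gdf15), where 0.855% of all genes rose. In RV 0 were called, against 0.0671% of all genes, so this 0 says little about the list. Tgfb2, a ligand, was higher in every banded library of both ventricles, at 22.9, 67.2 and 42.6 CPM in PAB-F RV against 15.2 and 15.0 CPM, and at 110, 39.2, 24.9 and 83.7 CPM in AOB-F LV against 16.7, 15.9 and 17.9 CPM. It rose in LV (log2 fold change 1.94 ± 0.43, adjusted p = 0.019), with 1.55 ± 0.51 in RV (adjusted p = 0.189) and a difference of -0.39 (95% CI -1.65 to 0.87). Ltbp2, a matrix protein of the latent TGF-beta binding family, rose in LV by 3.58 ± 0.79 and had 2.58 ± 0.93 in RV.

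Ltbp3, a binding protein of latent TGF-beta, was the clearest opposite case of this pathway. It was at 80.6 and 83.1 CPM in Sham-RF RV and 63.6, 78.7 and 80.5 CPM in PAB-F RV, and at 65.0, 72.7 and 68.8 CPM in Sham-LF LV and 104, 88.2, 82.2 and 111 CPM in AOB-F LV. Every PAB-F library was below its sham, replicate 3 by very little, and every AOB-F library was above its sham. Ltbp3 rose in LV (log2 fold change 0.48 ± 0.11, adjusted p = 0.019), the RV value was -0.14 ± 0.13, and the difference was -0.62 (95% CI -0.96 to -0.29, unadjusted p = 0.00039, adjusted p = 0.522). Inhba, the activin A subunit, Bmp4 and the BMP antagonist Chrd had differences of -1.36, -0.71 and -0.60, each at an unadjusted p under 0.05.

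**Figure D3:**
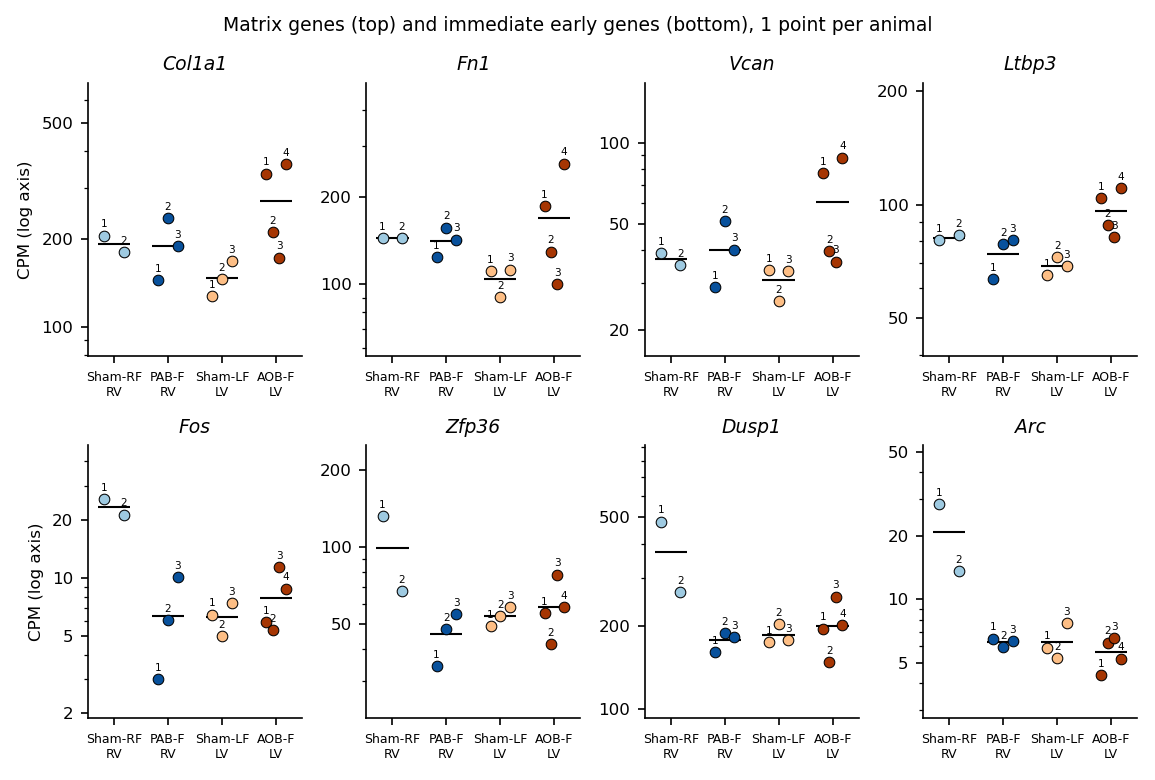
CPM on a log axis of 4 matrix genes (Col1a1, Fn1, Vcan and Ltbp3) and 4 immediate early genes (Fos, Zfp36, Dusp1 and Arc) in the 4 groups, with a circle and replicate number for each animal and a line at the group mean. Col1a1, Fn1 and Vcan have about the sham mean in PAB-F RV, Ltbp3 is below sham there, and all 4 have a higher mean in AOB-F LV than in its sham, and the immediate early genes have their highest group mean in Sham-RF RV.

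Complement genes had a median of 0.15 in RV and 0.49 in LV, and 16 of 17 were positive in LV against 11 in RV. Summed macrophage markers were at 363 to 706 CPM in PAB-F RV against 489 to 490 CPM in Sham-RF RV, and at 634 to 1070 CPM in AOB-F LV against 561 to 661 CPM in Sham-LF LV. The part of macrophages in the complement values was not tested. The 42 cytokines, chemokines and receptors had medians of 0.07 in RV and 0.23 in LV. They had 0 calls in either ventricle, against 0.0671% of all genes in RV and 1.20% in LV.

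Genes of mitochondrial fuel oxidation were lower in the failing LV and at about the sham level in the failing RV. All 22 genes listed with the tricarboxylic acid cycle had a negative log2 fold change in LV, where 14 (63.6%, against 5.90% of all genes) were lower in every AOB-F library than in every sham library. In RV 11 were positive and 11 negative and only 2 were lower without overlap (18.3% of all genes). The medians were -0.30 in LV, -0.01 in RV and 0.28 for the difference, which was positive for all 22. Got1 was the 1 member called (0.344% of all genes fell in LV). It encodes the cytosolic aspartate aminotransferase, not an enzyme of the cycle itself, so no cycle enzyme was called. Got1 fell in LV from 961, 973 and 1007 CPM to 525, 697, 861 and 585 CPM (log2 fold change -0.56 ± 0.14, adjusted p = 0.0312), and was at 952, 768 and 838 CPM in PAB-F RV against 935 and 1089 CPM in Sham-RF RV. Idh3a, Dlst and Sucla2, enzymes of the cycle, were past an unadjusted 0.05 for the difference, between 0.39 and 0.48 (2.24% of all genes were so and more positive in RV).

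The sham RV libraries were unequal for these genes. The mean log2 CPM of the 22 genes stood at -0.16 in Sham-RF RV replicate 1 and 0.16 in replicate 2, relative to their mean, and at -0.492, -0.244, -0.0861 and -0.463 in AOB-F LV relative to its sham. Without Sham-RF RV replicate 1 the median difference fell from 0.28 to 0.13, and it stayed positive under all alternatives run, with an upper end of 0.42.

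Fatty acid uptake and oxidation followed the same course. Of 43 genes, 40 had a negative log2 fold change in LV and 24 in RV, with medians of -0.37 and -0.03, and the difference was positive for 37 with a median of 0.33. In LV 13 (30.2%, against 5.90% of all genes) were lower without overlap and 21 were lower at an unadjusted p under 0.05 (5.87% of all genes). Acot2, a mitochondrial acyl-CoA thioesterase, fell in LV (147, 178 and 166 CPM in sham; 69.3 to 147 CPM in AOB-F; log2 fold change -0.70 ± 0.19, adjusted p = 0.0425), with -0.32 ± 0.23 in RV. Cpt1b, the muscle carnitine palmitoyltransferase, was at 462 and 553 CPM in Sham-RF RV and 604, 625 and 633 CPM in PAB-F RV, and at 574 to 600 CPM in Sham-LF LV and 489 to 601 CPM in AOB-F LV. Its difference was 0.39 (95% CI 0.07 to 0.71), and the electron transfer dehydrogenase Etfdh, the enoyl-CoA isomerase Eci2 and the nuclear receptor Esrra had differences of 0.47, 0.45 and 0.52. Without Sham-RF RV replicate 1 the median difference of the list was 0.18.

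Catabolism of branched-chain amino acids was similar, with 16 of 18 genes negative in LV (median -0.31) and 9 negative in RV (median 0.00). Bckdhb, a subunit of the branched-chain ketoacid dehydrogenase, fell in LV by 0.61 ± 0.16 on the log2 scale (adjusted p = 0.0361) and was at 304, 219 and 227 CPM in PAB-F RV against 286 and 319 CPM in Sham-RF RV.

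The nuclear-encoded subunits of the respiratory chain were lower in both ventricles. The medians of 75 subunits were -0.26 in RV and -0.26 in LV, with -0.01 for the difference. In RV 47 (62.7%, against 18.3% of all genes) and in LV 22 (29.3%, against 5.90%) were lower in every banded library, 15 of them in both (1.94% of all genes). No subunit passed the adjusted threshold. At an unadjusted p under 0.05, 0 were lower in RV (5.38% of all genes) and 10 in LV (5.87%). Mitochondrial ribosomal protein genes also had negative medians in both ventricles, at -0.11 in RV and -0.21 in LV.

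**Figure D4:**
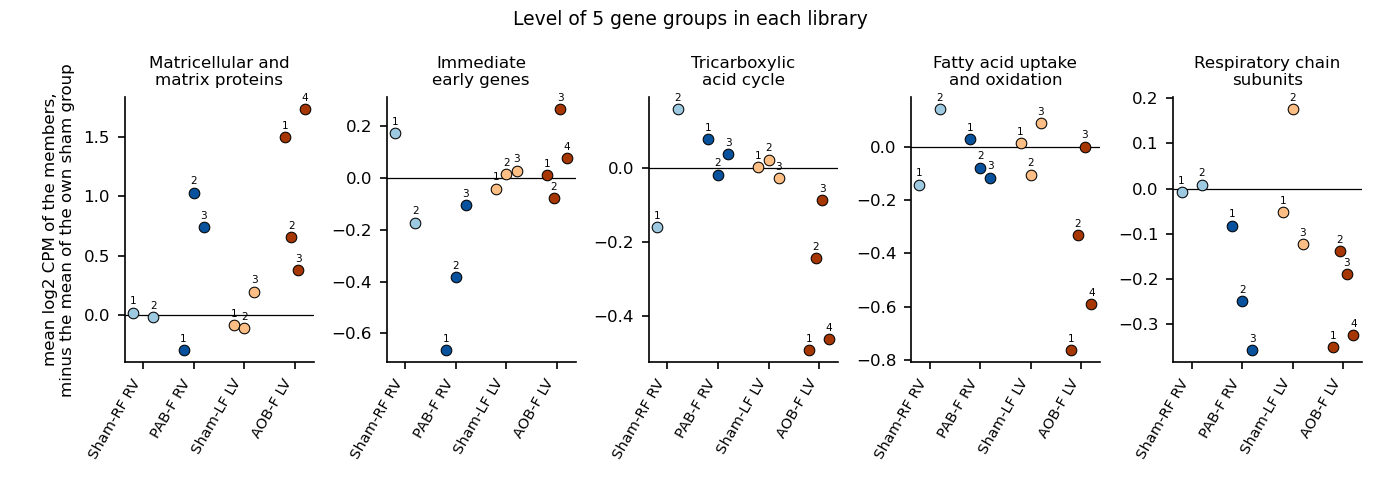
Mean log2 CPM of the members of 5 gene groups (matricellular, immediate early, tricarboxylic acid cycle, fatty acid and respiratory chain) in each library, relative to the mean of its own sham group. The cycle genes are below sham in all 4 AOB-F LV libraries and between -0.0171 and 0.079 in PAB-F RV, while the respiratory chain is below the sham mean in every banded library.

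Potassium channels had opposite medians, 0.27 in RV and -0.24 in LV, with 24 of 28 differences positive and a median of 0.44, yet none was past an unadjusted 0.05 for the difference. Kcnk2, a stretch-activated potassium channel, fell in LV (-1.29 ± 0.35, adjusted p = 0.0395), with -0.84 ± 0.40 in RV, so that the called member was lower in both. Calcium cycling genes had medians of 0.02 and -0.04. Cacna1g, a T-type calcium channel, rose in LV (2.04 ± 0.45, adjusted p = 0.019) and was at 10.1, 29.5 and 29.4 CPM in PAB-F RV against 8.90 and 7.60 CPM in Sham-RF RV.

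Immediate early genes, which are induced within minutes by growth factors, stress or injury, were lower in PAB-F RV than in its sham and not in AOB-F LV. The list was also lower in the LV and septum of the PAB-F animals than in those of Sham-RF, so the RV was not alone in this. Of the 31 tested the median was -0.24 in RV, 0.12 in LV and -0.45 for the difference. In RV 10 were lower at an unadjusted p under 0.05 (5.38% of all genes), and for the difference 10 were more negative in RV (3.36% of all genes) and only Nr4a3 more positive (2.18). Fos, the transcription factor subunit, was at 25.5 and 21.3 CPM in Sham-RF RV and 3.01, 6.03 and 10.1 CPM in PAB-F RV, and at 6.45, 4.99 and 7.43 CPM in Sham-LF LV and 5.89, 5.36, 11.4 and 8.81 CPM in AOB-F LV. Zfp36, which destabilises cytokine mRNA, was at 132 and 67.5 CPM in Sham-RF RV and 34.3, 47.7 and 54.8 CPM in PAB-F RV, and at 49.0 to 58.2 CPM in Sham-LF LV and 41.9 to 78.1 CPM in AOB-F LV. For Fos both sham RV libraries lay above the other 10 libraries, and for Zfp36 replicate 1 did. The difference was -2.19 for Fos (95% CI -4.17 to -0.20) and -1.25 for Zfp36 (95% CI -1.93 to -0.56, unadjusted p = 0.000497, adjusted p = 0.522).

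Zfp36 and the list were also high in the other chambers of the 2 Sham-RF animals. Over LV, septum and RV, their 6 libraries had Zfp36 at 67.5 to 132 CPM and a mean log2 CPM of the list of 4.66 to 5.01, against 41.4 to 58.2 CPM and 4.29 to 4.59 in the 9 Sham-LF libraries. In the PAB-F animals the list was at 4.325 to 4.641 in LV and 4.056 to 4.635 in septum. The Sham-RF values there were 4.754 to 4.958 and 4.683 to 4.816. Zfp36 was at 31.4 to 62.0 CPM in those chambers of PAB-F, against 75.1 to 113.5 CPM in Sham-RF. Fos in the LV and septum of the Sham-RF animals (12.0 to 15.6 CPM) was lower than in their RV. It lay above the LV and septum of the Sham-LF animals (4.99 to 7.83 CPM), while Sham-LF RV reached 16.3 CPM. Cd69 in LV was at 6.60 and 5.30 CPM in Sham-RF and overlapped with Sham-LF (4.39 to 6.13 CPM). In septum Cd69 was at 5.51 and 6.78 CPM in Sham-RF, above Sham-LF (4.93 to 5.09 CPM). Without Sham-RF RV replicate 1 the difference for Zfp36 was -0.68 and the RV median of the list went from -0.24 to -0.06, and without Sham-RF RV replicate 2 that median was -0.50. The median difference of the list ran from -0.65 to -0.29 over all alternatives run. The source of this level was not tested.

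Of the 8 genes called in RV, Dusp2 belonged to this list and Arc is an immediate early gene outside it. Arc fell from 28.2 and 13.6 CPM in Sham-RF to 6.50, 5.91 and 6.33 CPM in PAB-F (log2 fold change -1.74 ± 0.39, adjusted p = 0.0483), and ranged from 4.36 to 7.72 CPM over the 7 LV libraries. Dusp2, a phosphatase of activated lymphocytes, fell from 7.35 and 5.69 to 2.45, 2.40 and 1.89 CPM. Ncr1, a receptor of natural killer cells, fell from 4.12 and 4.49 to 1.68, 1.17 and 1.41 CPM, and Cd69, an early activation marker of lymphocytes, from 9.63 and 8.50 to 3.64, 2.21 and 3.46 CPM. Each had an adjusted p of 0.0483 in RV, and in LV their log2 fold changes were -0.51 for Dusp2, -0.84 for Ncr1 and -0.58 for Cd69, not past the threshold. Summed lymphocyte markers were at 9.04 to 12.0 CPM in PAB-F RV against 13.3 to 14.3 CPM in Sham-RF RV, and at 5.92 to 10.0 CPM in AOB-F LV against 8.45 to 12.2 CPM in Sham-LF LV. Their part in these values was not tested.

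Tspan1, a tetraspanin, was the 1 gene that rose in RV. It was at 0.588 and 0.359 CPM in Sham-RF RV and 2.31, 1.72 and 2.11 CPM in PAB-F RV, against 0.831 to 1.56 CPM in Sham-LF LV and 1.07 to 1.98 CPM in AOB-F LV. The log2 fold change was 2.11 ± 0.48 in RV (adjusted p = 0.0483) and 0.32 ± 0.34 in LV, with a difference of 1.80 (95% CI 0.63 to 2.96, adjusted p = 0.766). Ccdc8, St3gal4 and Usp40 completed the RV calls, with falls of 0.72, 0.55 and 0.67 on the log2 scale and LV values of -0.12, -0.07 and -0.06.

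The genes with the lowest p for the difference were mostly at low level, and none passed the adjusted threshold (adjusted p = 0.522 or 0.766 for all 16). Orm1, the acute-phase protein orosomucoid, was at 0.882 and 0.898 CPM in Sham-RF RV and 1.26, 1.42 and 1.30 CPM in PAB-F RV, and fell in LV from 1.61, 2.49 and 1.24 CPM in sham to 0.765, 0.67, 0.742 and 0.757 CPM in AOB-F (adjusted p = 0.019). Hp, the acute-phase protein haptoglobin, was at 2.79 and 1.68 CPM in Sham-RF RV and 0.839, 0.492 and 0.487 CPM in PAB-F RV, and at 0.485 to 0.531 CPM in Sham-LF LV and 0.433 to 1.38 CPM in AOB-F LV. The directions of these 2 acute-phase genes were opposite, with differences of 1.83 (95% CI 0.91 to 2.76) and -2.55 (95% CI -3.78 to -1.31). Fbxo44, a ubiquitin ligase subunit, was at 8.46 and 12.1 CPM in Sham-RF RV and 17.5, 21.7 and 24.9 CPM in PAB-F RV, and overlapped in LV (18.9 to 23.1 CPM in sham and 17.9 to 24.3 CPM in AOB-F), with a difference of 1.07 (95% CI 0.40 to 1.74). Here too the low value was in the sham RV, with PAB-F RV at the level of both LV groups.

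The other genes more positive in RV were Tspan1, Syngr1, Doc2g, Mrpl15, Parp3 and Adprhl1, with differences of 0.42 to 1.80, and Adprhl1, a cardiac ADP-ribosylhydrolase-like gene, fell in LV (-0.49 ± 0.13, adjusted p = 0.038). Those more positive in LV were, besides Hp, Ltbp3 and Zfp36, the genes Nfkbiz, Chrnb1, Aacs, Fasn and Scd1. The lipogenic enzymes Fasn and Scd1 rose in LV through AOB-F LV replicate 2, at 52.9 and 43.1 CPM, the library with the most adipocyte RNA. Without it and Sham-RF RV replicate 2 their differences went from -0.90 to -0.31 and from -5.69 to 0.24.

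**Figure D5:**
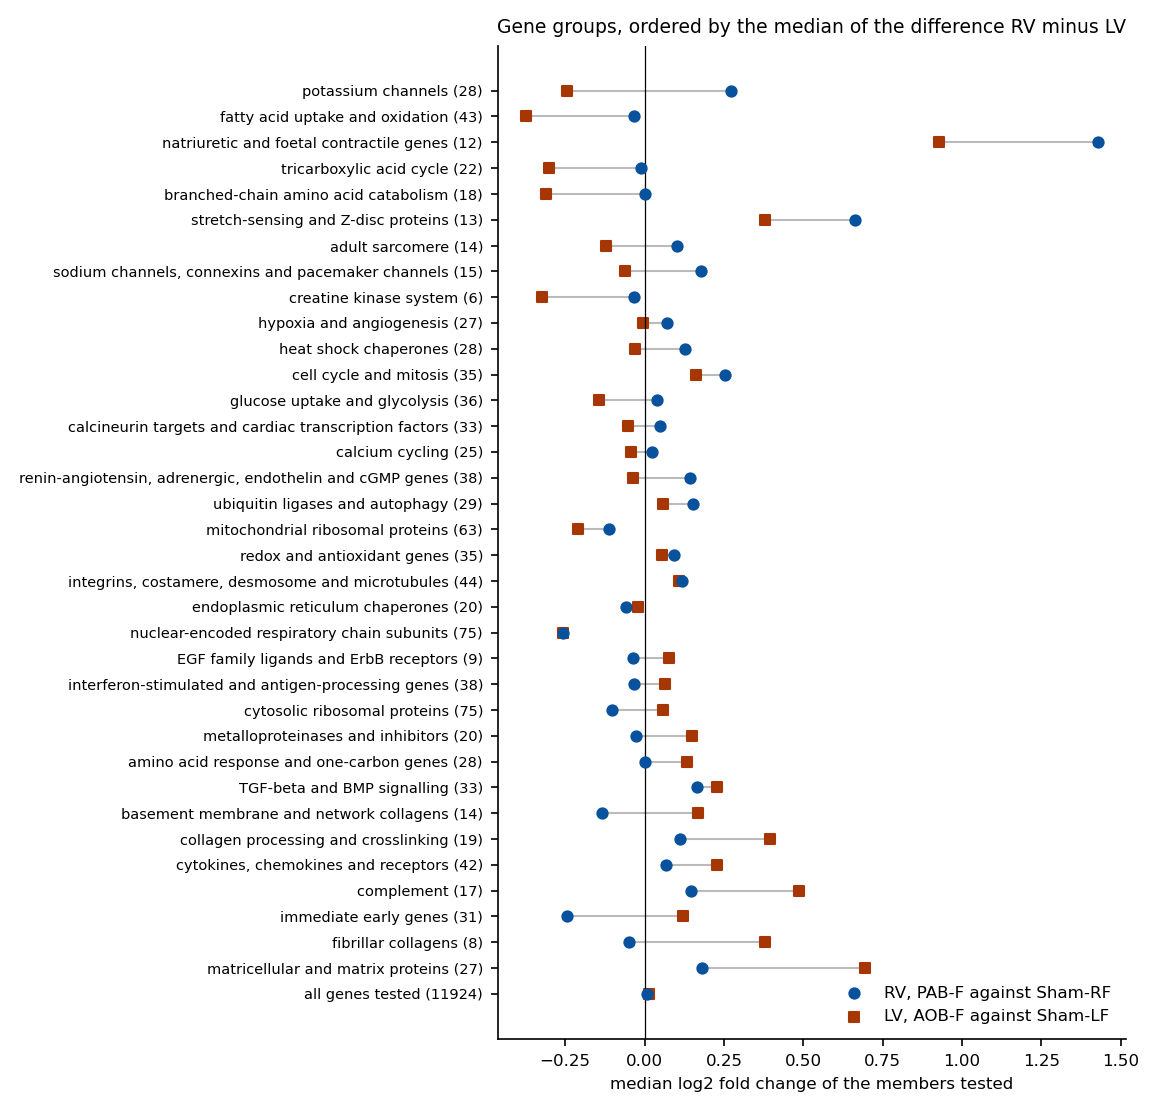
Median log2 fold change of 35 gene groups in RV (blue circles) and LV (red squares), with the number of members tested in parentheses, ordered by the median of the difference. Matrix, collagen and immediate early groups lie at the end where LV is more positive, and potassium channels and the groups of fuel oxidation at the end where RV is more positive.

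Genes that the study had found changed at failure in isolated cardiomyocytes of other animals were followed in this whole tissue. The 24 genes listed for both ventricles had medians of 1.31 in RV and 1.41 in LV, and 10 of them rose in LV (0.855% of all genes rose). Of the 136 genes listed for the RV alone 135 were tested. They had a higher median in LV than in RV, 0.64 against 0.38. In LV 18 rose and 1 fell (0.855% and 0.344% of all genes). In RV 0 were called, where only 8 of all 11924 genes were (0.0671%), so this 0 says little about the list. Of the 93 listed for the LV alone 89 were tested. They had medians of 0.24 in RV and 0.47 in LV, and 6 rose in LV (0.855% of all genes). The median difference was -0.31, -0.19 and -0.19 in the 3 lists, so that the RV-only and LV-only lists did not separate the ventricles here.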

How the data were processed

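Poly(A) RNA of ventricular tissue was sequenced as single-end reads of 75 bases. The authors trimmed reads with Trim Galore (0.6.4), mapped them with STAR (2.6.1d) to Rnor6.0 within nf-core/rnaseq (1.5) and counted them per gene with featureCounts (2.2.6). The counts deposited by the authors were analysed. Their normalized reads, a scaled signal, and FPKM, also deposited, were not used. The strand setting of the counting is not given in the sources used here, so overlapping and antisense genes are uncertain. A tissue entry in the labels names the left ventricle for the RV samples, and the sample titles were followed. The labels also give 6 months for the age at surgery in their text against 6 weeks in their field, the study's text gives yet another age, and the field was followed.

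Groups came from the labels. The labels name separate animals for the 12 libraries compared. The p-values rest on the spread between libraries within all 21 groups. These groups hold 3 libraries from each of 33 animals, and the fit had no animal term. All 99 libraries in 21 groups were fitted together with edgeR (4.0.16, R 4.3.3; filterByExpr, TMM, quasi-likelihood test, no covariate), which shares the estimate of spread, and p-values were adjusted by Benjamini-Hochberg over 11924 genes. SE and 95% CI came from that fit. Levels are CPM after TMM. A group with at most 3 counts in every library was given no fold. The library numbers of all 4 groups fall in the same run, taken here as library series 2. These numbers do not say whether the libraries shared a batch. Alternatives used limma (3.58.1) and DESeq2 (1.42.0). Python (3.11.15) served for summaries. The precision of low genes is limited by a depth of 12562697 to 18028805 counts per library, and by 2 to 4 animals per group.

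The genes, lists and comparison were chosen with earlier results of these data known. Named genes were 12 fixed genes, the 8 genes in each direction with the lowest p for the difference, the 10 and 5 genes without overlap that were most increased and most decreased in both ventricles, the 5 genes called with the largest change in each ventricle, and the leading members of 35 pathway lists. In the ranked parts a group mean of at least 1 CPM was required. Further members of a list or call set were named after their values were seen. No set test was run, and lists are described by counts and medians. No genome of the files' build was used here, and promoter sequences came from RefSeq (GRCr8). Results for 2 further list members are not reported here.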

Additional observations from a re-analysis of the deposited data

Results flagged for a closer look

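In the AOB-F LV group, 1 of 4 libraries lay farther from the others than Dixon's 95% limit for the gap to its neighbour over the group's range for 5 named genes and 2 marker sums, of 60 named genes and marker lists tested. Chance flags about 1 group in 20. Replicate 2 had Fasn at 52.9 CPM and Scd1 at 43.1 CPM, both lipogenic enzymes. Replicate 4 had Krt14, an epithelial keratin, at 11.8 CPM, Doc2g at 110.0 CPM (the other libraries at 131 to 133 CPM), summed atrial markers at 811.0 CPM and summed mesothelial markers at 80.8 CPM. Replicate 1 had Vgll2, a TEAD cofactor, at 4.90 CPM. Krt14 and Vgll2 were called in LV on these single libraries, with at most 3 counts in every Sham-LF LV library.

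For 7 genes every PAB-F RV library lay on 1 side of its sham and every AOB-F LV library on the other. The differences of the log2 fold changes were 1.83 for Orm1, 0.977 for Syngr1 and 0.615 for Doc2g, which were higher in RV and lower in LV. They were -1.48 for Nfkbiz, -1.47 for Chrnb1, -0.624 for Ltbp3 and -0.977 for Aacs, which were lower in RV and higher in LV. The difference was tested with edgeR and passed for none, with an adjusted p of 0.522 for Orm1, Nfkbiz, Chrnb1, Ltbp3 and Aacs and 0.766 for Syngr1 and Doc2g. The 7 are among 16 genes picked for a low p of this difference, and 27 and 54 of all genes had these opposite patterns (0.226% and 0.453%).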

How the results depend on the processing

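The difference between the responses had 0 genes past the threshold under all 23 alternatives, with the lowest adjusted p between 0.125 and 0.869. The counts within a ventricle moved widely. In RV, where the main count was 8, no filter on low counts gave 3, the 12 libraries alone 0, the 24 LV and RV libraries of the failure stage 1, leaving out 3 compensated animals 3, DESeq2 26, leaving out the libraries with atrial RNA 1 and those with adipocyte RNA 3. Leaving out single libraries gave 0 to 78. In LV, where the main count was 143, the 12 libraries alone gave 0, the 24 libraries 0, library series as a covariate 260, limma-voom with animal as a block 56, leaving out the libraries with atrial RNA 0 and those with adipocyte RNA 298. Leaving out single libraries gave 0 to 634. Of the 143 genes, 139 were also called by DESeq2, 143 with another normalization (RLE) and 101 without the filter. The alternatives on atrial and adipocyte RNA were chosen after seeing the data. The causes were not tested.

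Replicate numbers did not pair the samples: same-numbered libraries correlated at 0.277 and -0.0718 in RV and at -0.0288, 0.135 and 0.0894 in LV. With the replicate block, 6 genes were called in RV, 199 in LV and 0 for the difference.

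Of the list medians recomputed with single libraries left out, 1802 moved by less than the replicate spread and 34 by more, and under the other alternatives these numbers were 1664 and 19. Low genes, and differences under about 1.49-fold for a typical gene, were not resolved with 2 to 4 animals per group. The sign of the small RV medians of the tricarboxylic acid cycle and fatty acid genes, and of the respiratory chain's difference, depended on the setting.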

Other observations

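Cell cycle genes were higher in the failing RV. Of 35 tested, 31 had a positive log2 fold change in RV and 29 in LV, with medians of 0.25 and 0.16, and 13 (37.1%, against 16.8% of all genes) were higher in every PAB-F RV library than in sham, against 2 in LV (5.71%, against 5.90% of all genes). The licensing factor Mcm5 had log2 fold changes of 0.87 in RV and 0.30 in LV, and the cyclin Ccne1 of 1.25 and 0.55. None of the list passed the adjusted threshold in either ventricle or for the difference.

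Cytosolic ribosomal protein genes had medians of -0.10 in RV and 0.06 in LV. In RV 36 of 75 (48.0%, against 18.3% of all genes) were lower in every PAB-F library and in LV 0 were, and none passed an unadjusted 0.05 for the difference. The LV median changed sign under 2 of the 23 alternatives and the RV median under 0. Heat shock chaperones had medians of 0.13 and -0.03, with 9 of 28 higher in RV at an unadjusted p under 0.05 (5.97% of all genes) and 5 in LV (7.15% of all genes). The testis-type Hsp70 gene Hspa1l had log2 fold changes of 1.32 in RV and 0.69 in LV, and the co-chaperone Dnaja4 of 1.20 and 0.44.

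Some single genes outside these groups follow. Map1b, a microtubule-associated protein, rose in LV (log2 fold change 0.96 ± 0.23, adjusted p = 0.019 by edgeR) and had 0.52 ± 0.27 in RV. Maoa, a monoamine oxidase, had log2 fold changes of 2.197 in RV and 1.34 in LV, and the growth factor Tgfa of 2.09 and 1.95, neither past the threshold. Tgm1, a transglutaminase, rose in LV (2.47 ± 0.63, adjusted p = 0.0315), with 0.44 ± 0.72 in RV and a difference of -2.03 (95% CI -3.92 to -0.14, unadjusted p = 0.0354, adjusted p = 0.855).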
